A study of Mus musculus with 8 samples.

Results

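The genes described here encode the proteins of the cytosolic ribosome. They were taken by symbol: a mouse gene was a member when its symbol starts with Rpl or Rps followed by a digit, or is Rpsa, Rplp0, Rplp1 or Rplp2, with Rps6k kinase genes and pseudogenes left out. By this rule 89 of the 22911 genes named on the array were members, 35 of them named for the small subunit and 54 for the large one, and each was read by its brightest probe. Both groups were male mice aged 11 weeks that carried loxP-flanked Fbln5 exons. The control islets came from mice that the labels call floxed, with no Cre named, and the βFbln5KO islets from mice that also carried Ins1-Cre, a Cre under the promoter of the insulin gene Ins1, which deletes Fbln5 in β-cells and leaves it in the other cells of the islet. Fbln5 encodes fibulin-5, a secreted protein of the extracellular matrix. RNA from 150 islets per extraction, 4 extractions per group, was hybridised to 8 one-colour Agilent arrays on 1 slide. The labels call the 4 samples of a group biological replicates, and whether an extraction pooled animals is not given in the sources used here. A whole islet holds several cell types, so that fewer cells of a type and less RNA per cell cannot be told apart.

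The ribosome joins a small subunit, which binds the mRNA, to a large subunit, which forms the peptide bonds, and each carries many proteins that are assembled on ribosomal RNA in the nucleolus. Ribosomal protein mRNAs are among the most abundant of any cell, and most of them start with a short run of pyrimidines at the 5′ end (the TOP motif), through which mTORC1 signalling and the RNA-binding protein LARP1 set how fast they are translated. In β-cells, which make insulin in large amounts, translation is tied closely to nutrient supply.

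The 5′ starts of several members are shown because the pyrimidine run is the sequence feature that ribosomal protein genes are known for, and the rule did not use it. Of the 89 genes, 68 had an entry in the RefSeq promoter table (build GRCm38.p6), with 80 annotated starts in all. A start was counted as a pyrimidine start when its first base is C and at least 4 more pyrimidines follow without a break. In the lines below, capitals mark that run, which begins at the annotated start after 10 bases of upstream sequence, and each line is read 5′ to 3′ on the gene's strand.
Rps18, chr17:33955651-33955675, minus strand: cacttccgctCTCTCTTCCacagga
Rps6, chr4:86857353-86857377, minus strand: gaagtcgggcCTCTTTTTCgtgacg
Rps27, chr3:90213634-90213658, minus strand: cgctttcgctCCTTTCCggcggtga
Rplp2, chr7:141447641-141447665, plus strand: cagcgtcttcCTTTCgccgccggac
Rpl14, chr9:120571507-120571531, plus strand: ggccctctctCTTCTCgctgagcgc
Rpl35a, chr16:33056472-33056496, plus strand: gcttgccttcCTCTTTCCgccatct
Rps15a, chr7:118116133-118116157, minus strand: tttctgccatCTTCCCTCgccggtg
Among the paralogs and retrogenes, the start of Rpl32l also met the criterion.
Rpl32l, chr10:20208429-20208453, plus strand: aaatgaccagCTTCTTCCTTggtgc
Most members, 54 of the 68 with an entry, had no start that met it. The next lines show 3 core members and 5 paralogs of this kind.
Rpl5, chr5:107900518-107900542, plus strand: cgtcgcttgcgtgctggtggtgcta
Rpl11, chr4:136053379-136053403, minus strand: ccataaggccacggggccggaagtc
Rps3, chr7:99483695-99483719, minus strand: aagggtcgccgcgctgcgcggcgtc
Rpl3l, chr17:24727816-24727840, plus strand: ttctagctctgtcatttgacctctg
Rpl10l, chr12:66284387-66284411, minus strand: cctccattttgcggctggcggtggg
Rpl39l, chr16:10170218-10170242, plus strand: aggcctttccggatttccggtggtc
Rps27l, chr9:66946076-66946100, plus strand: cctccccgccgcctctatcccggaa
Rpl22l1, chr3:28805498-28805522, plus strand: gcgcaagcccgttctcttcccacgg
A pyrimidine start was found at 14 of the 80 member starts (17.5%), against 2.51% of all 32851 starts in the table. The count depends on where the first base is annotated, and a shift of a few bases removes a start from it. In the 300 bases around the start, on either strand, the letters CCGGAAG, an ETS family motif, occurred at 27 member starts (33.8%) and 8.86% of all starts. The letters GCCATNTTG, a YY1 motif, occurred at 7 member starts of 4 genes (8.75%) and 2.51% of all starts. The letters TATAAA occurred at 8 of the 80, against 13.6% of all starts.

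The precision was limited by the number of arrays. Each signal is given as log2 relative to the array's 75th percentile, so that a value of 0 is that percentile. Spots that the scanner software scored as well above background made up 56.6% to 58.8% of each control array and 52.6% to 56.6% of each βFbln5KO array, and no spot was saturated. All control arrays stood in 1 row of the slide and all βFbln5KO arrays in the other, so that genotype and position on the slide cannot be told apart. The probe of Fbln5 itself read −1.70, −1.32, −2.05 and −1.83 on the control arrays and −2.74, −2.40, −2.38 and −1.37 on the βFbln5KO arrays. The array labelled βFbln5KO replicate 4 thus lay within the control range, and the difference of −0.50 (SE 0.29, adjusted p 0.342 in limma) was within the spread between arrays. Without that array it was −0.78 (adjusted p 0.0227 in limma). At an adjusted p under 0.05 that fit called 11206 probes higher and 338 lower, against 5 and 1 with all arrays, so that the 2 adjusted p-values are not alike. Whether that probe lies in the deleted exons is not given in the sources used here. All 9 β-cell markers were scored well above background on every array, and their summed log2 level was 10.2 to 10.5 in control and 10.2 to 10.3 in βFbln5KO islets. Of 8 acinar markers, 7 were above background on all 8 arrays.

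Ribosomal protein transcripts were bright in these islets. Of the 89 members, 85 passed the well-above-background flag on each of the 8 arrays, and for 79 of them the probe's mean was at least 4 on the log2 scale. The exceptions were Rpl3l, Rpl10l and Rpl39l, which passed it on no array, and Rpl37, which passed it on 1 control and 1 βFbln5KO array. The median SD within a group was 0.099 on the log2 scale over the 85 members. It was the same, 0.099, over 1030 genes outside the family with a probe mean of at least 4, and 0.13 over all 13650 genes above background on all 8 arrays, most of which are dimmer.

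The expression of ribosomal protein genes was slightly lower in βFbln5KO than in control islets, by an amount that lay within the spread of the control arrays and was no longer there after quantile normalization. Over the 85 members the median log2 difference (βFbln5KO minus control) was −0.081, which is −5.48%, and the middle of the distribution, from the 25th to the 75th percentile, ran from −0.12 to −0.056. The fitted difference was below 0 for 77 of the 85 members, where it was below 0 for 53.6% of all genes above background. At an adjusted p under 0.05 in limma 0 members were called, against 0.0131% of all genes. At an unadjusted p under 0.05 the count of lower members was 1 of 89 (2.68% of all genes) and that of higher members 3 of 89 (16.8% of all genes), and these 3 were the members that are dim on every array. Among the 85 members above background 0 passed the adjusted threshold (0.0147% of such genes), 1 was lower at the unadjusted one (3.08% of such genes) and 0 were higher (1.01%). The methods' t-test called 4 of the 89 members lower (2.75% of all genes) and 1 higher (15.6%) at this threshold. Groups that did not overlap, with all 4 βFbln5KO arrays below all 4 control arrays, were found for 5 of the 85 members, Rpl13, Rps12, Rps18, Rps20 and Rps23rg1 (2.03% of genes above background), and none had the reverse order (0.686%).

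The intervals limit how large a change these arrays could have missed. The 95% interval of the log2 difference lay within 0.4 of 0, a change of 1.32-fold, for 82 of the 85 members (96.5%, against 70.6% of genes above background), and within 0.3 for 58 (68.2% against 54.9%). It lay within 0.2 for 8 (9.41% against 25.2%). For 55 members the fitted difference itself was under 0.1 in size. The interval excluded 0 for 1 member, Rps18.

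**Figure D1:**
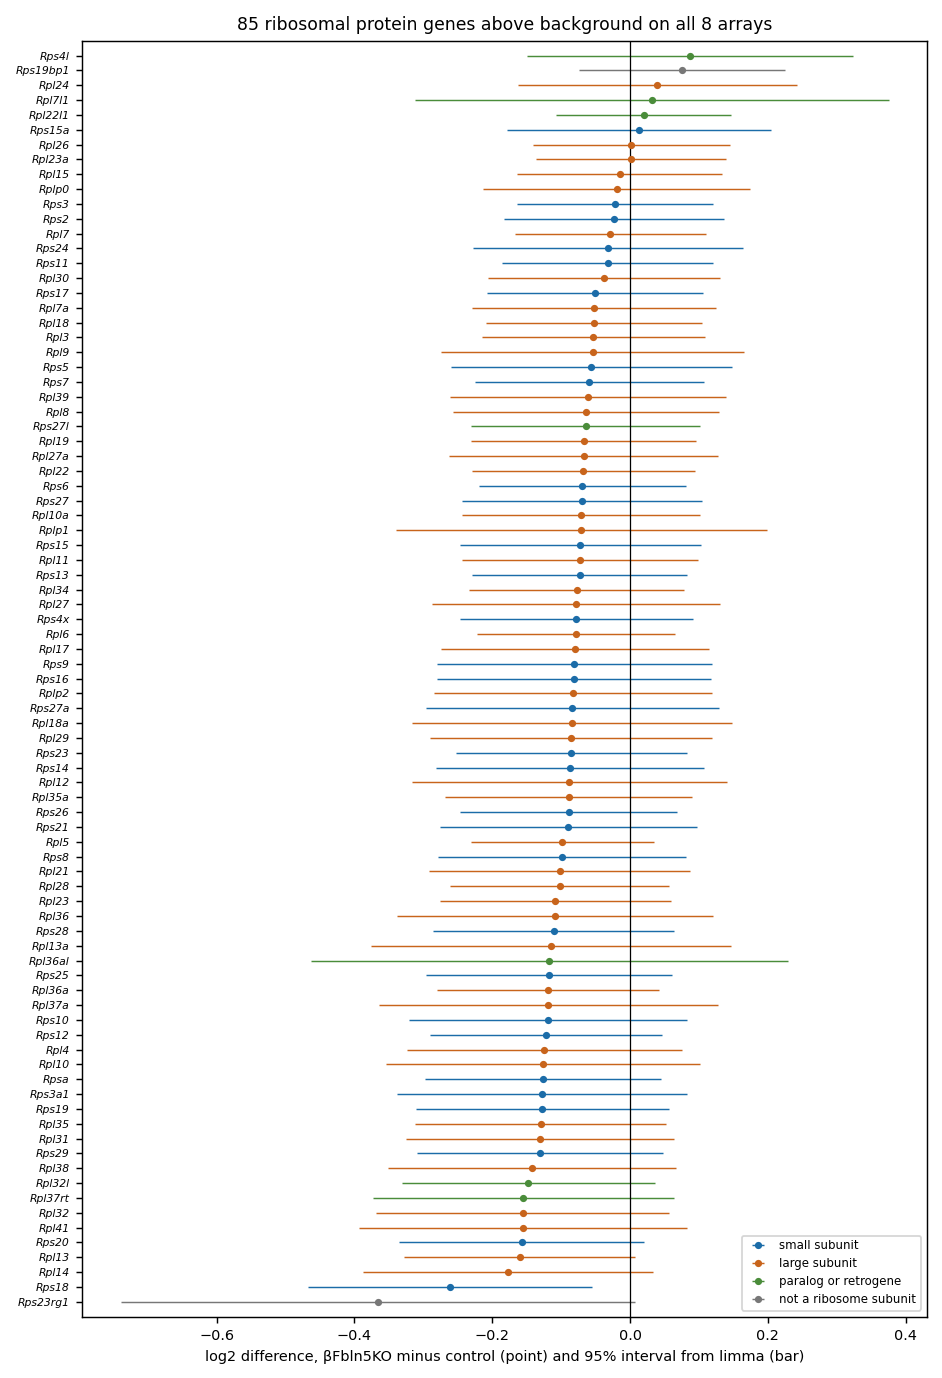
Log2 difference between βFbln5KO and control islets (x axis) for the 85 ribosomal protein genes above background on all 8 arrays (y axis, ordered by the difference), 4 arrays per group. Points are limma estimates and bars 95% intervals, coloured by class; 77 points lie below 0, and the bar of Rps18 is the only one that does not reach 0.

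The subunits gave almost the same value. The 31 members that are core proteins of the small subunit, without paralogs, retrogenes and factors that only share the prefix, had a median log2 difference of −0.084, with 30 below 0. The 46 core members of the large subunit had a median of −0.081, with 43 below 0. Of the 10 paralogs and retrogenes 3 were dim, and the 7 whose probes were above background had a median of −0.064 and ranged from −0.16 to 0.087. The lowest were Rpl37rt (−0.16) and Rpl32l (−0.15). Whether their probes bind the retro-copy or the core form cannot be told apart here. Genes of ribosomal proteins that carry other symbols, of which 2 are given here, gave values close to those of the core members. Fau, which encodes a small subunit protein fused to a ubiquitin-like one, had a log2 difference of −0.094 (SE 0.096), and Rack1, a scaffold protein on the small subunit, −0.057 (SE 0.071), neither of which passed an unadjusted p of 0.05 in limma.

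Control replicate 3 stood apart from the other arrays in these genes. Relative to each gene's control mean, the median over the 85 members was −0.11, −0.043, 0.15 and 0.00052 on control replicates 1 to 4 and −0.081, −0.070, −0.051 and −0.13 on βFbln5KO replicates 1 to 4. The βFbln5KO arrays covered a narrower range than the control arrays, and 3 of the 4 lay within the control range, while the array labelled βFbln5KO replicate 4 lay just below control replicate 1. Control replicate 3 was the highest of the 8 arrays for 71 of 85 members (83.5%), where it was the highest for 24.5% of the 13552 genes above background with complete values. The lowest array was control replicate 1 for 26 members (30.6%, against 23.3% of these genes). It was the array labelled βFbln5KO replicate 4 for 24 (28.2%, against 13.7%). Without control replicate 3 the median over the 85 members was −0.029, and 68 were below 0. The direction was lost with quantile normalization, where the median was 0.0031 and 39 of 85 members were below 0. With centring on detected probes the median was −0.059, with 74 of 85 below 0. It was −0.076 with the deposited table (77 below 0) and −0.074 with a normexp background correction (75 below 0).

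The same array was also high in markers of acinar cells, the enzyme-producing cells of the surrounding exocrine pancreas. Their summed log2 level was 9.63, 9.37, 11.2 and 10.9 on control replicates 1 to 4 and 9.55, 8.48, 8.56 and 10.4 on βFbln5KO replicates 1 to 4. Control replicates 3 and 4 had the highest acinar levels and also the highest ribosomal protein medians of the 8 arrays (0.15 and 0.00052). The array labelled βFbln5KO replicate 4 came next in acinar level and had the lowest ribosomal protein median (−0.13). All 8 acinar markers had fitted differences below 0, with a median of −1.03, and 0 of them passed an unadjusted p of 0.05 in limma. Markers of α-cells, the glucagon cells of the islet, also read lower on βFbln5KO arrays. All 5 were above background on all 8 arrays and had fitted differences below 0, with a median of −0.23, and 1 of the 5 passed an unadjusted p of 0.05 in limma. Relative to the control mean, the median over the 5 was −0.083 to 0.029 on the control arrays and −0.45 to −0.13 on the βFbln5KO arrays, without overlap, and their summed log2 level was 8.10 to 8.28 and 7.94 to 8.11. Of the markers of β, δ, PP, ductal, endothelial and mesenchymal cells and macrophages, 0 passed an unadjusted p of 0.05, and the medians of these lists ran from −0.10 to −0.0030. That of the β-cell list was −0.073. Control replicate 3 also had the highest summed level of β-cell (10.5), α-cell (8.28), δ-cell (7.81) and endothelial markers (5.56). It was not the highest array for PP, ductal, mesenchymal or macrophage markers. The part of other cell types in the ribosomal protein values was not tested.

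**Figure D2:**
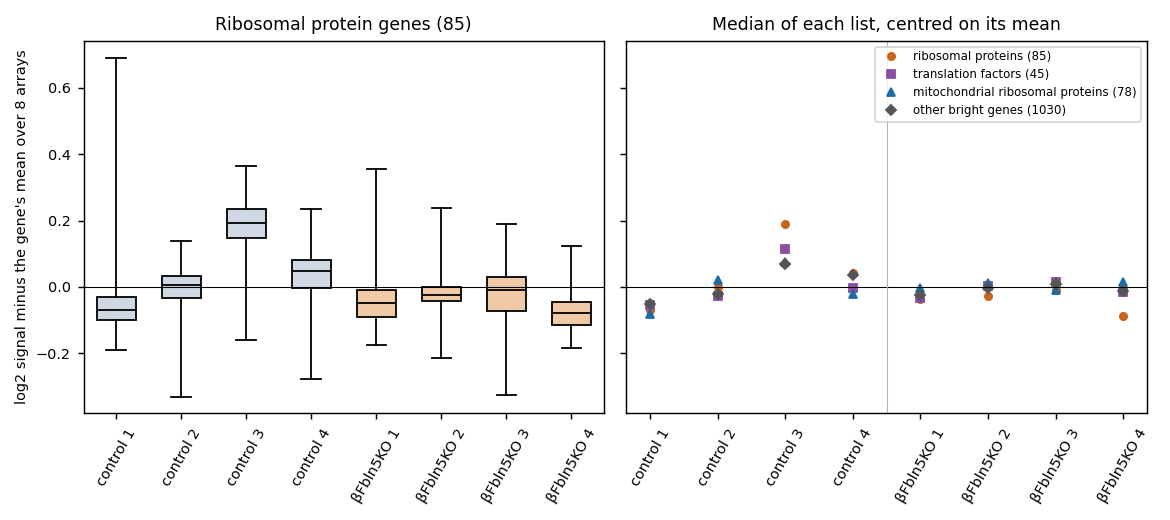
Left, log2 signal minus the gene's mean over 8 arrays for the 85 ribosomal protein genes on each array (boxes, 25th to 75th percentile with the median; whiskers, lowest and highest gene). Right, the median per array of ribosomal proteins (85), translation factors (45), mitochondrial ribosomal proteins (78) and 1030 other genes with a probe mean of at least 4, each centred on its mean; control replicate 3 is the highest array for the ribosomal proteins, and the 4 βFbln5KO arrays sit near or below 0.

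Among the single members, Rps18, a protein of the head of the small subunit, had the smallest p of those above background. Its log2 signal was 7.12, 7.24, 7.43 and 7.34 on the control arrays and 7.0, 7.02, 6.99 and 7.08 on the βFbln5KO arrays. All βFbln5KO arrays were below all control arrays, and the difference was −0.26 (SE 0.091), or −16.6%, with an unadjusted p of 0.019 and an adjusted p of 0.102 in limma (p = 0.029 by an exact two-sided permutation test, the smallest that 4 against 4 arrays can give). The gene has 3 probes, and the others did not show this difference. The brightest, A_51_P287677, is a single spot in row 2 of 384, while A_55_P2135632 and A_55_P2135631 are each the mean of 10 spots spread over the array. The difference was −0.047 (SE 0.077) for A_55_P2135632 and −0.044 (SE 0.071) for A_55_P2135631, and both groups overlapped. The call of the brightest probe was lost with quantile normalization (−0.091), with the mean over the 3 probes (−0.12) and without control replicate 4 (−0.24, unadjusted p 0.0501 in limma). With the outer 16 spot rows at either edge left out, the brightest probe is not measured and no member was lower.

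Of the other members whose groups did not overlap, Rps20, also of the small subunit head, read 6.93, 6.89, 7.0 and 6.84 on the control arrays and 6.78, 6.84, 6.76 and 6.65 on the βFbln5KO arrays. The groups came within rounding of each other at 6.84, and the difference was −0.16 (SE 0.078, adjusted p 0.268 in limma). Its probe lies in spot row 2, as that of Rps18 does. Rpl13, of the large subunit, read 5.99, 5.95, 6.17 and 5.94 in control and 5.90, 5.91, 5.82 and 5.79 in βFbln5KO islets, a difference of −0.16 (SE 0.074, adjusted p 0.226). Its other probes gave −0.12 (SE 0.080) and −0.28 (SE 0.14), the same direction in all 3. Rps12 read 5.89, 5.88, 6.11 and 5.90 in control and 5.88, 5.86, 5.78 and 5.77 in βFbln5KO islets, a difference of −0.12 (SE 0.074, adjusted p 0.379). None of these 3 genes passed an unadjusted p of 0.05 in limma with the settings used throughout. Rpl13 did so in 5 of 19 alternatives, namely the filter on dim probes, the deposited table, normexp, the mean over its probes and the methods' t-test, with differences of −0.15 to −0.21. Rps20 did so with the filter, the deposited table and the t-test, and Rps12 in none. After quantile normalization the differences were −0.076 for Rpl13, −0.026 for Rps20 and −0.048 for Rps12, and without control replicate 3 that of Rps12 was −0.066.

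The lowest fitted difference among the members above background was that of Rps23rg1, a retroposed copy of Rps23 whose product is a membrane protein and no ribosome subunit. Its log2 signal was −0.53, −1.27, −1.02 and −1.33 in control and −1.35, −1.44, −1.48 and −1.36 in βFbln5KO islets. Control replicate 1 was the highest, the groups came close at −1.33 and −1.35, and the difference of −0.37 (SE 0.16) had an adjusted p of 0.213 in limma. It passed an unadjusted p of 0.05 in 6 of 19 alternatives, among them normexp, the replicate block, the mean over its probes and the fits without control replicate 2 (−0.44) or 4 (−0.46), and it was −0.20 without control replicate 1. The gene's other probe gave −0.29 (SE 0.14). Rps19bp1, whose product binds the small subunit protein Rps19 and regulates the deacetylase Sirt1, is also no ribosome subunit and gave 0.075 (SE 0.066).

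The members with known roles beyond the body of the ribosome gave small differences as well. Rps6, the small subunit protein that S6 kinases phosphorylate when mTORC1 is active, read 5.54, 5.60, 5.74 and 5.54 in control and 5.49, 5.60, 5.52 and 5.53 in βFbln5KO islets, a difference of −0.069 (SE 0.066). The groups overlapped, since βFbln5KO replicate 2 equalled control replicate 2 to 2 decimals. Rpl5 and Rpl11 bind the 5S ribosomal RNA and, when ribosome assembly fails, the p53 inhibitor Mdm2. The log2 difference was −0.098 (SE 0.059) for Rpl5 and −0.073 (SE 0.075) for Rpl11. The stalk proteins of the large subunit, which recruit translation factors, gave −0.019 (SE 0.085) for Rplp0, −0.071 (SE 0.12) for Rplp1 and −0.082 (SE 0.089) for Rplp2. Rps3, at the site where the mRNA enters, gave −0.021 (SE 0.063), and Rpsa, which is also known as the laminin receptor, −0.13 (SE 0.075). Rps19, the gene most often mutated in Diamond-Blackfan anaemia, gave −0.13 (SE 0.081), and Rpl13a, which also takes part in silencing inflammatory mRNAs, −0.11 (SE 0.11). Without control replicate 4 the value of Rpl13a was −0.23 (SE 0.080, unadjusted p 0.023 in limma), and without control replicate 1 it was −0.043. With all arrays none of these 10 members passed an unadjusted p of 0.05 in limma, and their 95% intervals all included 0.

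Paralogs stand in for a core protein in some tissues, and those known from muscle and testis were dim on every array. Rpl3l, the form of heart and skeletal muscle, read −7.01, −6.99, −7.17 and −6.95 on the control arrays and −6.32, −6.42, −6.38 and −6.81 on the βFbln5KO arrays. These values are below the lowest log2 signal well above background of any array, which was −5.01 to −4.79 in control and −4.70 to −4.19 in βFbln5KO, so that no fold is given. The fit gave an unadjusted p of 0.0039 and an adjusted p of 0.0728 in limma with the βFbln5KO arrays higher. Rpl10l and Rpl39l, the forms of male germ cells, were dim as well. On the control arrays Rpl10l read −7.14, −7.10, −6.69 and −7.06, and on the βFbln5KO arrays −6.45, −6.48, −6.60 and −6.96 (unadjusted p 0.044 in limma). Rpl39l read −6.46, −7.12, −7.31 and −7.05 and then −6.47, −6.51, −6.63 and −6.60 (unadjusted p 0.045 in limma). As these 3 genes were dim on every array, the values are not a measure of their expression, and with a normexp background correction all 3 fitted differences were below 0. The core forms were bright and gave −0.053 (SE 0.071) for Rpl3, −0.13 (SE 0.10) for Rpl10 and −0.061 (SE 0.088) for Rpl39.

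The paralogs that were detected varied in both directions without a call. Rps4l, the paralog of the X-linked Rps4x, had the highest fitted difference among members above background, with 3.48, 3.15, 3.52 and 3.60 in control and 3.37, 3.56, 3.67 and 3.51 in βFbln5KO islets. The groups overlapped, and the difference was 0.087 (SE 0.10), where Rps4x gave −0.078 (SE 0.074). Rpl22l1, which Rpl22 is known to repress, gave 0.020 (SE 0.056) and Rpl22 −0.068 (SE 0.071). Rps27l, a target of p53, gave −0.064 (SE 0.073) and Rps27 −0.070 (SE 0.077). For Rpl36al and Rpl36a the values were −0.12 (SE 0.15) and −0.12 (SE 0.071). Rpl7l1, a nucleolar protein of ribosome assembly, gave 0.031 (SE 0.15), and Rpl7 −0.029 (SE 0.061). Differences between a paralog and its core form were not tested.

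The probe named for Rpl37 was dim, with −4.57, −5.05, −5.02 and −4.94 in control and −5.61, −5.18, −4.63 and −4.50 in βFbln5KO islets. That of Rpl37rt, its retro-copy, was bright, with 7.27, 7.35, 7.60 and 7.43 in control and 7.20, 7.32, 7.27 and 7.24 in βFbln5KO islets. Which of the copies the bright probe binds cannot be told apart here, and its difference was −0.16 (SE 0.096, adjusted p 0.388 in limma). The same holds for the probes of Rpl32l and Rpl32, which gave −0.15 (SE 0.081) and −0.16 (SE 0.093).

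**Figure D3:**
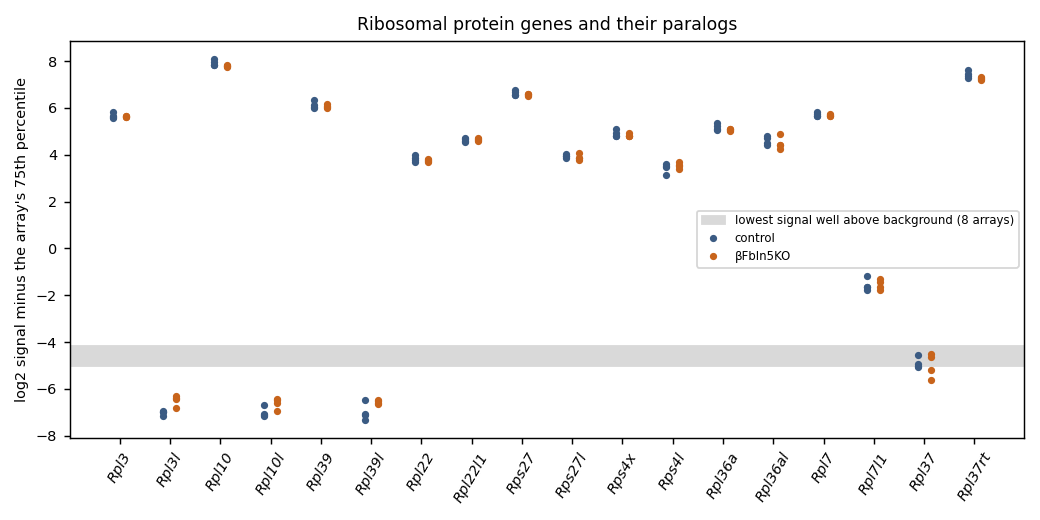
Log2 signal minus the array's 75th percentile (y axis) for ribosomal protein genes beside their paralogs (x axis), 1 point per array, 4 control and 4 βFbln5KO arrays. Each point cloud is 1 probe, so heights of different genes are not comparable as amounts; Rpl3l, Rpl10l and Rpl39l lie below the grey band, which spans the lowest well-above-background signal of the 8 arrays, and Rpl37 lies around it.

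The array design repeats many ribosomal protein probes, which separates spot noise from differences between arrays. Of the 152 probes of the 89 genes, 60 are printed in 10 spots each. The SD of 1 such probe between the spots of an array was 0.041 in the median, and its SD between the arrays of a group 0.096. None of the 60 probes passed an unadjusted p of 0.05 in limma, and their differences ran from −0.15 to 0.044 with a median of −0.066, 57 of them below 0. For 46 genes with at least 2 probes above background on all 8 arrays, the probes of a gene differed by 0.062 in the median, with 1 direction in 35 genes and both in 11. Beyond the brightest probes, 61 other probes were detected on every array, with a median of −0.054. Of these, 0 were higher at an unadjusted p under 0.05 (0.853% of all probes above background on 8 arrays) and 1 was lower (5.42%), A_55_P2102816 of Rpl36a, which was named after its value was seen (−0.13, SE 0.054, unadjusted p 0.042 in limma).

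The probes disagreed most for Rps3a1 and Rps24. For Rps3a1 the dimmest of 3 probes gave −0.43 (SE 0.46), with 2.39, 2.34, 3.78 and 3.60 in control and 2.40, 2.20, 3.75 and 2.05 in βFbln5KO islets, so that both groups held low and high arrays. Its 10-spot probe gave 0.044 (SE 0.060) and the brightest −0.13 (SE 0.093). Rps24, whose mRNA is spliced in several forms at its 3′ end, has 3 probes named for different RefSeq transcripts, with differences of −0.032 (SE 0.086), −0.16 (SE 0.078) and −0.37 (SE 0.20) from the brightest to the dimmest. The groups did not overlap for the middle one, the counts above use only the brightest, and none of the 6 probes passed an unadjusted p of 0.05 in limma. Rps3a1 and Rps24 were chosen after their values were seen.

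**Figure D4:**
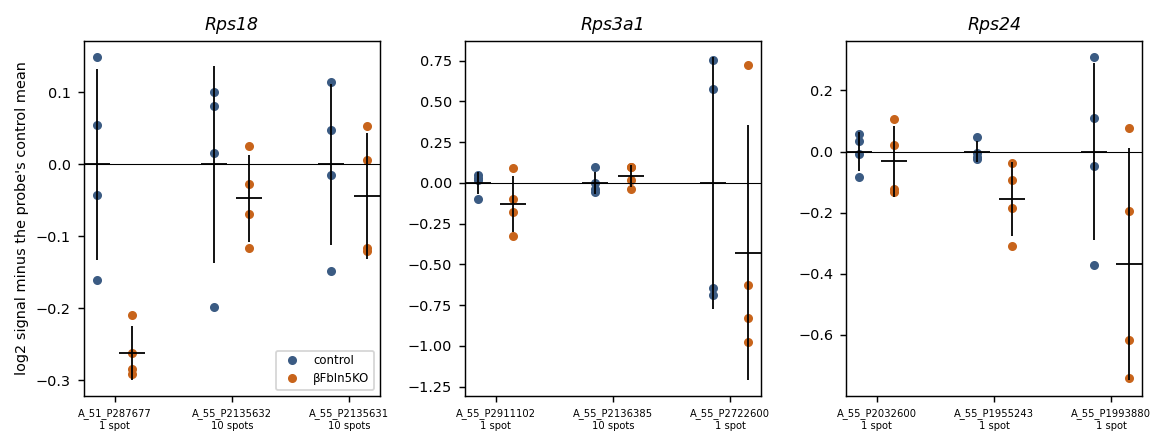
Log2 signal minus the probe's control mean (y axis) for the 3 probes each of Rps18, Rps3a1 and Rps24 (x axis, brightest first), with points for 4 control and 4 βFbln5KO arrays, horizontal bars for group means and vertical bars for the SD. The groups are apart only for the single-spot probe A_51_P287677 of Rps18 and the middle probe of Rps24, and the y scales differ between panels.

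The 14 members with a pyrimidine start, all detected on every array, had a median log2 difference of −0.096 and ranged from −0.26 (Rps18) to 0.013 (Rps15a). The 50 members above background without such a start at the annotated position had a median of −0.078. The difference between these classes was not tested. On the sequences shown above, Rpl14 gave −0.18 (SE 0.093) and Rpl35a −0.089 (SE 0.079).

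Other gene lists of translation had medians nearer to 0 than the ribosomal proteins with all arrays and the scaling used throughout, a difference that was not tested. These lists were dimmer. The median probe mean was 5.75 for the 89 ribosomal proteins and 2.02 for mitochondrial ribosomal proteins. It was 1.15 for ribosome biogenesis, 3.75 for translation factors and 1.73 for the mTORC1 list. The part of signal level in this order was not tested. For the mitochondrial ribosome, ribosome biogenesis and translation factors this order was lost with quantile normalization and, for ribosome biogenesis, without control replicate 3, and it held in the other alternatives. After quantile normalization the median was 0.0043 for the 89 ribosomal proteins, 0.012 for mitochondrial ribosomal proteins, 0.025 for ribosome biogenesis genes and 0.0046 for translation factors. Without control replicate 3 these medians were −0.028, 0.027, 0.074 and 0.0023. The sign of the mitochondrial and biogenesis medians turned without control replicate 1, where they were −0.023 and −0.022. That of the mitochondrial median also turned without control replicate 4 (−0.0045), and that of the biogenesis median without βFbln5KO replicate 3 (−0.0046). At an unadjusted p under 0.05, 1.01% of all genes above background were higher and 3.08% lower, against which the counts of these lists are to be read. The 78 genes of the mitochondrial ribosome, the most similar family, which translates the few proteins encoded in mitochondrial DNA, had a median of 0.0020, with 0 called in either direction at an unadjusted p under 0.05 in limma. Those of smallest p were Mrps35, with 0.23 (SE 0.11), Mrpl38, with 0.13 (SE 0.063), and Mrps11, with 0.15 (SE 0.10). Without βFbln5KO replicate 2 the value of Mrps11 was 0.035, and without control replicate 4 that of Mrps35 was 0.12. Of 45 translation factors, with a median of −0.023, 0 were higher and 1 was lower, Eif3a, a subunit of the initiation factor that binds the small subunit (−0.16, SE 0.064, unadjusted p 0.037, adjusted p 0.164 in limma). The elongation factor genes Eef1a1 and Eef1d, whose mRNAs also carry TOP motifs, gave −0.18 (SE 0.092) and −0.16 (SE 0.10). Of 49 ribosome biogenesis genes, with a median of 0.026, 1 was higher, Utp18, whose probe was dim on every array. Those of smallest p among the detected ones were Nop10, a protein of the H/ACA particle (0.077, SE 0.039), the assembly factor Mrto4 (−0.10, SE 0.054) and Gnl3, which encodes nucleostemin (0.14, SE 0.081). Of 16 genes of mTORC1 signalling and its control of TOP mRNAs, with a median of −0.035, 0 were higher and 1 was lower, Eif4ebp2, which holds back the cap-binding protein eIF4E (−0.14, SE 0.051, adjusted p 0.121 in limma). Rps6kb1, the S6 kinase, gave −0.13 (SE 0.071), and Myc, which drives ribosome production, 0.34 (SE 0.26).

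The 1030 genes outside the family with a probe mean of at least 4 had a median probe mean of 4.73. Their median difference was −0.018, with 61.7% below 0. Their median per array spanned −0.063 to 0.060 on control arrays and −0.036 to −0.0020 on βFbln5KO arrays, with control replicate 3 highest as for the ribosomal proteins. For the mitochondrial ribosomal proteins the corresponding medians were −0.079 to 0.080 and −0.0040 to 0.018.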

How the data were processed

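The authors hybridised Cy3-labelled islet RNA to Agilent SurePrint mouse arrays and deposited the output of Agilent Feature Extraction 11.0.1.1 for each of 8 arrays. The values used are the processed signal, an intensity that the authors' software had background-subtracted and spatially detrended but not normalized between arrays, and the software's marks for outliers and for spots well above background. A value table that the authors deposited beside it holds ratios of this signal to a number per array, and served as an alternative.

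For 59305 non-control spots, log2 of the intensity was taken and the 75th percentile of the array (709 to 1055) subtracted. Outlier values (1689 of 474440) were left out and spots of a probe averaged. Through RefSeq accessions 32994 of 56605 probes were named for 22911 genes. Groups were compared over the 8 arrays in R 4.3.3 by lmFit and eBayes (with trend) of limma 3.58.1, p-values being adjusted over all 56605 probes by Benjamini-Hochberg, and single values by exact two-sided permutation tests. A gene was read by the probe of highest mean over 8 arrays. Errors are limma's standard errors. For members dim in both groups the fitted differences enter the counts and the alternatives, and are no measure of expression. Tables and figures were made with pandas 2.3.3 and matplotlib 3.10.9. The fit was tested on simulated data, at an adjusted p under 0.05. Of 200 probes changed by a log2 of 2, 146 were recovered, with 12 false calls, and 0 probes were called when none was changed. Smaller changes, such as those of the members, were not simulated.

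The members and gene lists were chosen with earlier results of these data known. Genes named are Fbln5, members above background with an unadjusted p under 0.05, members dim on any array, paralog pairs, members with roles outside structure, ribosomal protein genes of other symbols, the 3 genes of smallest p in each other list, and the highest and lowest fitted differences; members whose groups do not overlap were named after their values were seen. Marker lists covered acinar and ductal cells, α-, β-, δ- and PP cells, macrophages, and endothelial and mesenchymal cells. Alternatives were normexp (offset 50), quantile normalization, centring on detected probes, a filter to probes above background on at least 4 arrays, eBayes without trend, outliers kept, the methods' t-test, the mean over the probes of a gene, the deposited table, leaving out the outer 16 spot rows, blocking on replicate number, and leaving out each array in turn. Rps27rt is a gene of the rule whose probe was not named here. The single values of 2 genes, a ribosomal protein gene of another symbol and a marker gene, are not reported here. The genome build of the probes differs from that of the promoter table, and no probe coordinates are given.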

Additional observations from a re-analysis of the deposited data

Results flagged for a closer look

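Of 90 groups of 4 arrays tested for a single array far from the others (Dixon's test of the gap over the range), 3 were found, where 1 in 20, or 4.5, would be by chance. Rps19 on βFbln5KO replicate 2 was the highest of its group at 6.24, with the others at 6.13 to 6.15. Mrps35 on control replicate 4 was the lowest of its group at −0.49, with the others at −0.096 to −0.023. Mrps11 on βFbln5KO replicate 2 was the highest of its group at 0.42, with the others at −0.038 to 0.015.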

How the results depend on the processing

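At an unadjusted p under 0.05 in limma, 3 members were higher, all dim on every array, and 1 was lower, Rps18. The count of higher members was 0 with the deposited table, the filter on dim probes, normexp and quantile normalization, 1 with the methods' t-test, and 1 to 2 with each array left out in turn. Of all genes, 1.41%, 0.869%, 0.742% and 1.9% were higher in those settings with 0, 15.6% with the t-test and 15.9% to 19.1% with an array left out. That of lower members was 4 with the deposited table, the filter and the t-test, 5 with normexp, 2 with the mean over probes, 0 with quantile normalization and with the outer 16 rows left out, which removes the spot of Rps18, and 1 to 2 with an array left out. Of all genes, 3.22% were lower with the deposited table, 3.56% with the filter, 2.75% with the t-test, 3.86% with normexp, 2.92% with the mean over probes, 2.85% with quantile normalization, 2.71% with the outer rows left out and 2.09% to 3.5% with an array left out. The replicate numbers did not pair the arrays throughout. The correlations of same-numbered deviations were 0.20, 0.30, −0.22 and −0.022 for replicates 1 to 4. The same-numbered array was the best match for replicates 1 and 2 but not for 3 and 4. With the replicate number as a block 1 member was higher and 2 were lower (14.7% and 2.89% of all genes). At an adjusted p under 0.05, Rpl3l passed with eBayes without trend (0.0498) and, with Rpl10l, without βFbln5KO replicate 4 (0.00248 and 0.0281). Both are dim, and under these settings 6184 of 56605 and 11206 of 56603 probes were called higher at this threshold, against 5 with all arrays and the trend.

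The median over the 89 members moved only with quantile normalization past 1 SD of the array medians, to 0.0043 (small subunit −0.0054, large subunit 0.0076), and the cause was not tested. With an array left out it ran from −0.12 to −0.028 (small subunit −0.12 to −0.028, large subunit −0.11 to −0.028), and the value nearest 0 was that without control replicate 3. The difference of Fbln5 ran from −0.78 (without βFbln5KO replicate 4, where it passed the threshold) to −0.33. Signs turned for the genes that follow. With quantile normalization the differences were −0.061 for Rpl10l, 0.0043 for Rpl37, 0.026 for Rpl3, 0.049 for Rpl7, 0.090 for Rpl10, 0.026 for Rpl39, 0.018 for Rps27, 0.065 for Rplp0, 0.017 for Rplp1, 0.084 for Rplp2, 0.0068 for Rps6, 0.052 for Rps3, 0.014 for Rpl11, 0.036 for Fau and 0.027 for Rack1. With normexp they were −0.097 for Rpl3l, −0.014 for Rpl10l, −0.15 for Rpl39l, 0.052 for Rplp0 and 0.054 for Rack1, and with centring 0.0032 for Rplp0 and 0.0011 for Rps3. With an array left out they ran from −0.084 to 0.0031 for Rpl3, −0.047 to 0.0052 for Rpl7, −0.043 to 0.16 for Rpl7l1, −0.00064 to 0.045 for Rpl22l1, −0.25 to 0.12 for Rpl37, −0.10 to 0.010 for Rpl39, −0.0089 to 0.14 for Rps4l, −0.078 to 0.034 for Rplp0 and −0.055 to 0.0095 for Rps3. Other values that were not called moved by over 1.5 times as well, among them Rpl36al (−0.26 to −0.028), Rplp1 (−0.16 to −0.0048), Fau (−0.16 to −0.025) and Eef1d (−0.21 to −0.069). Rps18 has no value with the outer rows left out. Signal over background limits the 4 members Rpl3l, Rpl10l, Rpl39l and Rpl37.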
